A study of Mus musculus with 5 samples.

Results

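By symbol, the genes described here belong to families of enzymes that add or remove methyl and acetyl groups on histone lysines. Some of the genes encode enzymes that act mainly on other substrates, and all genes were examined for peaks in the mouse fetal testis. They are the protein-coding genes of the mm10 RefSeq annotation whose symbol begins with Kmt, Kdm, Setd, Hdac, Sirt or Kat and a number, or is Ezh1 or Ezh2. This rule gave 62 of 21883 protein-coding genes: 18 methylases (Kmt, Setd and Ezh), 18 demethylases (Kdm), 8 acetylases (Kat) and 18 deacetylases (Hdac and Sirt). Peaks came from CUT&RUN, where antibody-tethered nuclease frees the DNA fragments that carry the targeted protein or histone mark. Dissociated cells of whole male gonads, passed through a 70 µm filter, were used at 100000 cells per assay; the labels give no genotype or strain, and all cell types of the gonad were assayed together. An antibody against CREB was used on embryonic days E13.5, E16.5 and also E18.5, and an H3K4 antibody, whose methylation state the labels leave out, at E18.5. Each group holds 1 library, so no value has a replicate check and no test between stages or antibodies was possible. An IgG library of the series was not analysed here.

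CREB is a transcription factor that binds the cAMP response element (CRE) and activates transcription when cAMP signalling leads to its phosphorylation. Histone methylases and demethylases set marks that are read as active (H3K4, H3K36) or silent (H3K9, H3K27, H4K20) chromatin, and acetylases and deacetylases open and close it. In the fetal testis these enzymes act in Sertoli and Leydig cells as well as in germ cells, which go through a genome-wide change of chromatin at these stages. H3K4 methylation is found at active promoters, though not only there, and the methylation state detected here is unknown.

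The lists held 862, 3528 and 2957 CREB peaks in stage order, from E13.5 to E18.5, and 21211 H3K4 peaks, with no score and unknown read depth. Nearly all peaks of a list had 1 width, 150, 630, 160 and 210 bp, so the E16.5 peaks reach a window more easily. H3K4 peaks stood at an end of 8 of 12 markers of Sertoli, Leydig and germ cells (Amh, Cyp11a1, Dazl, Dhh, Dnd1, Nr5a1, Sox9 and Star). Of these 12, Gata4, Wt1, Insl3 and Ddx4 had none there. Among 8 markers of other cells, 2 had H3K4 at an end (Cdh5 and Foxl2). The exact 95% intervals, 34.9 to 90.1 and 3.19 to 65.1, both held the 52.7% of all protein-coding genes. The 2 counts thus do not separate the lists from other genes. CREB stood at 0 of the 12 and 0 of the 8, which allows shares of up to 26.5% and 36.9%.

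A gene was counted when a peak reached into the window of 1000 bp before and after 1 of its outer ends. By this count 25 of the 62 enzyme genes had a CREB peak at 1 or more stages (40.3%, exact 95% Clopper-Pearson interval 28.1 to 53.6), beside 16.7% of all protein-coding genes. At E13.5 these were 4 genes (6.45%, 1.79 to 15.7) beside a background of 3.94%. At E16.5 there were 23 genes (37.1%, 25.2 to 50.3) beside 14.9%, and at E18.5 18 genes (29%, 18.2 to 41.9) beside 12.9%. H3K4 peaks stood at 45 of the 62 (72.6%, 59.8 to 83.1) beside 52.7%. The E13.5 count was close to its background, and the other counts lay above theirs with intervals that left the background outside. The intervals cover counting error over genes only. Among the first 862 peaks of each list, 7 members had CREB at E16.5 and 4 did at E18.5, beside 4.36% and 4.29% of all protein-coding genes.

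**Figure D1:**
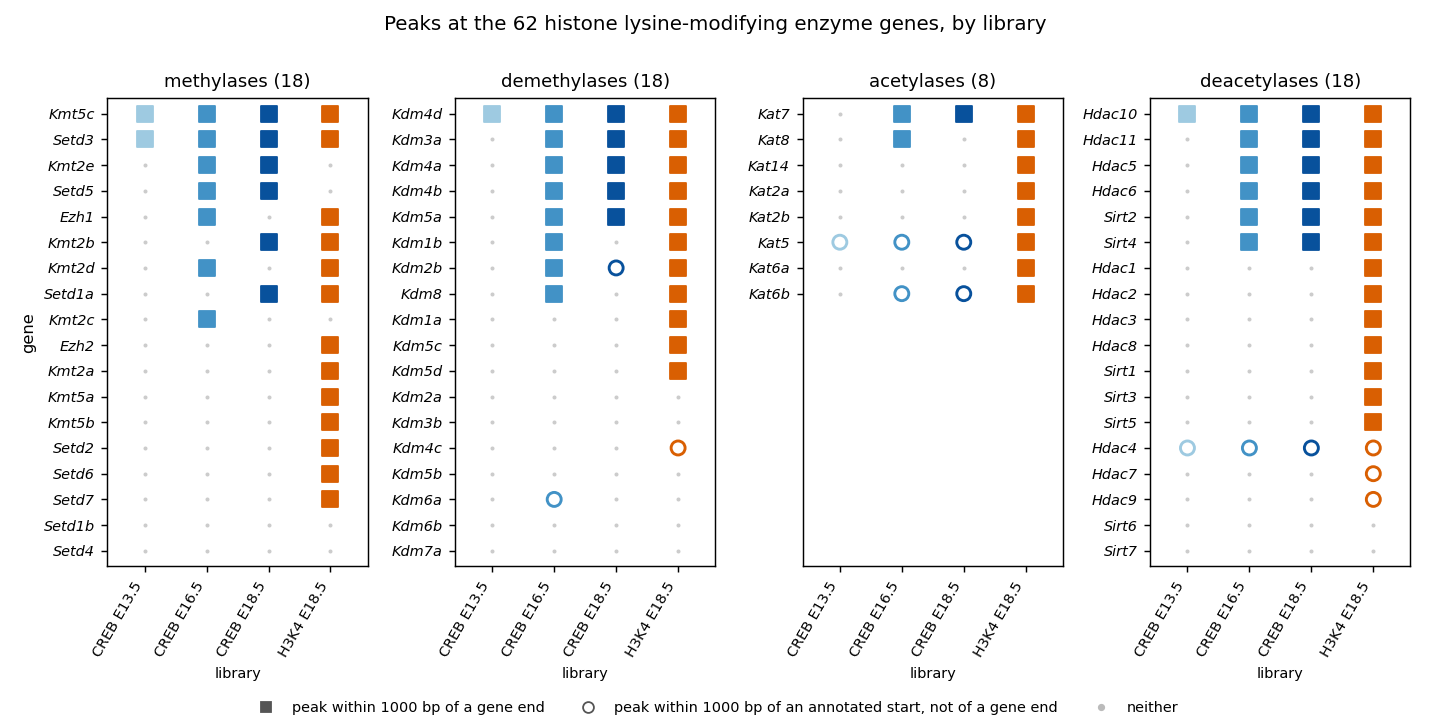
Peaks at each of the 62 genes in the 4 libraries, by enzyme class. Filled squares mark a peak within 1000 bp of a gene end, open circles a peak within 1000 bp of an annotated start but not of a gene end, and dots neither; 4 rows are filled in all 3 CREB columns, and the 8 acetylases are filled in the H3K4 column.

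CREB stood mostly at genes with H3K4, which was measured at E18.5 alone. H3K4 was found at 4 of the 4 members with CREB at E13.5 (background 96.3%), 20 of the 23 seen at E16.5 (background 95%) and 16 of the 18 seen at E18.5 (background 95.8%). Turned round, members with H3K4 carried CREB in 4 of 45 cases at E13.5 (8.89%, beside 7.2% of all genes with H3K4), 20 of 45 at the next stage (44.4%, interval 29.6 to 60, beside 26.9%) and 16 of 45 at the last (35.6%, interval 21.9 to 51.2, beside 23.4%). The E18.5 interval held its background and the E16.5 interval did not. Of the 17 members without H3K4, 0 had CREB at E13.5 (background 0.309%), 3 at E16.5 (1.57%) and 2 at E18.5 (1.15%).

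Other chromatin genes gave overlapping values. In 5 companion lists with 109 genes in all (further histone enzymes, and subunits of the COMPASS, PRC2, acetylase and deacetylase complexes), 5, 35 and 27 genes had CREB in stage order (4.59%, 32.1% with interval 23.5 to 41.7, and 24.8% with interval 17 to 34), and 89 had H3K4 (81.7%). The intervals of the 62 members and of these 109 genes overlapped at E16.5 and at E18.5.

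At E16.5 CREB stood at 7 of 18 methylases (38.9%), 8 of 18 demethylases (44.4%), 2 of 8 acetylases (25%) and 6 of 18 deacetylases (33.3%), with intervals of 17.3 to 64.3, 21.5 to 69.2, 3.19 to 65.1 and 13.3 to 59. At E18.5 the counts were 6, 5, 1 and 6 genes (33.3%, 27.8%, 12.5% and 33.3%). Their intervals were 13.3 to 59, 9.69 to 53.5, 0.316 to 52.7 and 13.3 to 59. At E13.5 the counts were 2, 1, 0 and 1. Of all protein-coding genes, 14.9% had CREB at E16.5, 12.9% at E18.5 and 3.94% at E13.5. The intervals of methylases and demethylases at E16.5, and of methylases and deacetylases at E18.5, lay above these shares. All other CREB intervals of the classes held them. H3K4 stood at 13 methylases (72.2%), 11 demethylases (61.1%), 8 acetylases (100%, interval 63.1 to 100) and 13 deacetylases (72.2%). The share of all protein-coding genes was 52.7%. In each library the intervals of the 4 classes overlapped, so these gene numbers do not separate the classes. For acetylases at E13.5, 0 of 8 allows a share of up to 36.9%.

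**Figure D2:**
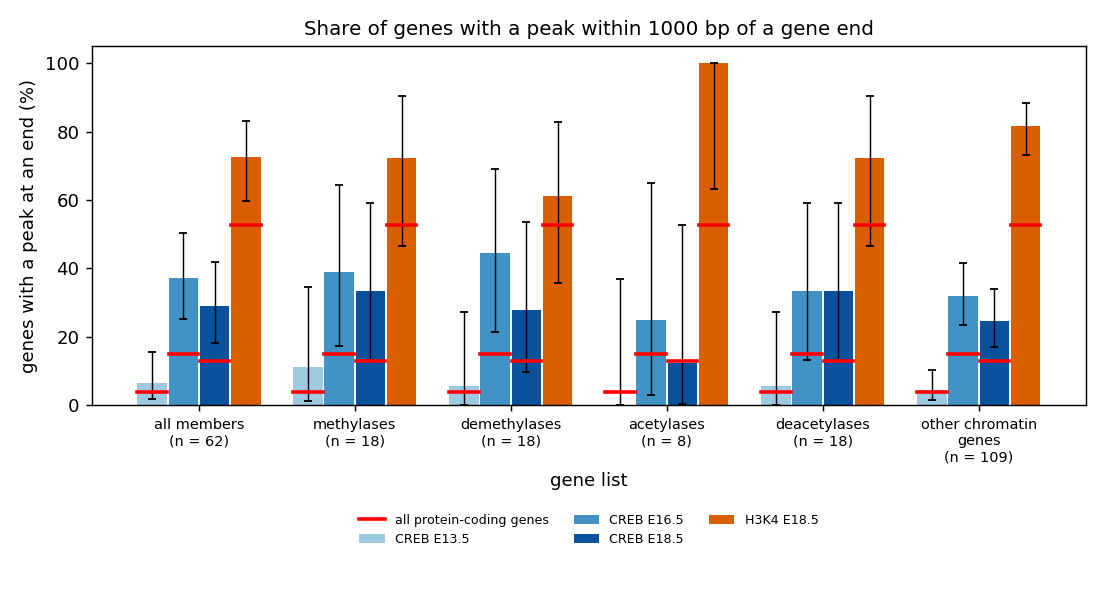
Share of genes with a peak within 1000 bp of a gene end (%), for all members, the 4 classes and the companion lists, in CREB by stage and in H3K4. Error bars are exact 95% intervals over genes and red lines the share of all protein-coding genes; the CREB bars of all members at E16.5 and E18.5 (37.1% and 29%) stand above their lines at 14.9% and 12.9%, and the intervals of the classes overlap.

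CREB was found at all 3 stages at 4 genes (6.45%, beside 3.83% of all protein-coding genes): Kmt5c, which encodes a methylase of H4K20 in heterochromatin, Setd3, whose product methylates a histidine of actin, Kdm4d, an H3K9 demethylase gene known for its expression in male germ cells, and Hdac10, whose product deacetylates polyamines. No member had CREB at E13.5 without both later stages. This was general, as 838 of the 862 protein-coding genes with CREB at E13.5 had it at all 3 stages. At Kmt5c (chromosome 7, 4740092 to 4747514) the midpoints of the CREB peaks lay 116, 108 and 174 bp outside the 5' end in stage order, in list positions 340 of 862, 378 of 3528 and 285 of 2957. The H3K4 peak lay on the other side of this end, inside the gene, with its midpoint 649 bp from that of the E18.5 CREB peak. No other protein-coding gene had an end near these Kmt5c peaks, but the noncoding genes Gm24537 and Gm42369 had ends near the CREB peaks.

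The other members with CREB throughout shared their peak with a neighbouring protein-coding gene. At Setd3 (chromosome 12, 108106431 to 108179345) the midpoints lay 338, 366 and 278 bp outside the 5' end of Setd3 and 374, 402 and 314 bp from an end of Ccnk, a cyclin gene. At Kdm4d (chromosome 9, 14462548 to 14500522) they lay 82, 62 and 76 bp inside the 5' end and 164, 144 and 158 bp from an end of Cwc15, which encodes a splicing factor. At Hdac10 (chromosome 15, 89123303 to 89128700) they lay 110, 98 and 120 bp outside its low-coordinate end and only 14, 2 and 24 bp from an end of Tubgcp6, which encodes a component of the gamma-tubulin complex. A second Hdac10 peak, at E16.5 alone and in position 3061 of 3528, lay at the high-coordinate end. Peaks of this kind cannot be assigned to 1 gene of the pair. Among all genes with CREB at E13.5, 44.4% had their first-listed peak within 1000 bp of another protein-coding gene's end, with 38.5% for E16.5 and 38.3% for E18.5. Among members the counts were 3 of 4, 8 of 23 and 6 of 18. Beside Setd3, Kdm4d and Hdac10 these were Ezh1, Kdm1b, Kmt2d, Kdm5a and Sirt2 at E16.5 and Kdm5a, Kmt2b and Sirt2 at E18.5.

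A further pair of genes, Hdac4 and Kat5, carried CREB at all 3 stages at an annotated start that lies inside the gene, which a count by outer ends leaves out. The RefSeq promoter table (GRCm38.p6) matched 50 of the 62 members. Within 1000 bp of an annotated start, 5, 19 and 15 of these 50 had CREB in stage order, beside 4.28%, 16% and 13.9% of 17491 protein-coding genes, and 42 had H3K4, beside 56.6%. CREB was there throughout in 5, beside 4.19%. Hdac4 encodes a class IIa deacetylase, a corepressor that leaves the nucleus when phosphorylated. Its annotated start (chromosome 1, position 92180341, minus strand) lies 15361 bp from the outer end, and the CREB midpoints lay 112, 140 and 100 bp upstream of it in stage order. They stood in positions 244, 442 and 147 of their lists, the last being the earliest E18.5 position of the peaks described here. Kat5 encodes the Tip60 acetylase, which acts in DNA repair and transcription. One of its annotated starts (chromosome 19, position 5610094, minus strand) lies 1462 bp inside the outer end. CREB midpoints lay 98 bp upstream of it at E13.5, 196 bp downstream at E16.5 and 80 bp upstream at E18.5, in positions 209, 176 and 368. The E16.5 midpoint was also 154 bp upstream of a second start, at position 5609744. With outer ends and annotated starts together, 6, 27 and 22 members had CREB in stage order (9.68%, 43.5% and 35.5%, beside 4.24%, 16% and 13.8% of all protein-coding genes), 49 had H3K4 (79%, beside 57.3%), and 6 had CREB throughout (9.68%, beside 4.14%).

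The promoters below show the letters around annotated starts, from 250 bases before to 50 after the start. They are written 5' to 3' on the gene's strand and credited to RefSeq GRCm38.p6. Some of the CREB peaks reach beyond these windows, and letters there were not searched. Capitals mark the CRE core TGACG or, on the other strand, CGTCA. The first 4 carried CREB at all 3 stages. Hdac5 and Hdac11 carried it at E16.5 and E18.5 with a core inside the peak. Kat7 and Kdm4a also carried it at both of these stages. The only core in the Kat7 window lay outside the peaks, and the Kdm4a window held no core.
Kmt5c: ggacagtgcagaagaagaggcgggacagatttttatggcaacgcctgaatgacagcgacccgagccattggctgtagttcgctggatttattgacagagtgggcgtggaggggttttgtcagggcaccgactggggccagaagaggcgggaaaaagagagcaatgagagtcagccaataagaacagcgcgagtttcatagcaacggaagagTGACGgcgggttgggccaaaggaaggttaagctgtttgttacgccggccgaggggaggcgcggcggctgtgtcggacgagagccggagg
Kdm4d: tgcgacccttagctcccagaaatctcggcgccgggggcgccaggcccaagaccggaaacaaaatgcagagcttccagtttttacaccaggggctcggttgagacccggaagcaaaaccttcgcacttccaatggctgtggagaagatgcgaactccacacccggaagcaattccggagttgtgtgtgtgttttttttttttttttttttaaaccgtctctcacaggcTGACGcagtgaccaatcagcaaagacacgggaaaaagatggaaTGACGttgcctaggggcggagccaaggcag
Hdac4: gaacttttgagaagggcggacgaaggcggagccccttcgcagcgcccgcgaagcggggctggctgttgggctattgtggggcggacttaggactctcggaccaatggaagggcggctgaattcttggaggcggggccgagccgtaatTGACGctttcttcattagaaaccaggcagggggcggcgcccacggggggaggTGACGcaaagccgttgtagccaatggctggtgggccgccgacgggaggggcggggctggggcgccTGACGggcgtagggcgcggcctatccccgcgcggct
Kat5: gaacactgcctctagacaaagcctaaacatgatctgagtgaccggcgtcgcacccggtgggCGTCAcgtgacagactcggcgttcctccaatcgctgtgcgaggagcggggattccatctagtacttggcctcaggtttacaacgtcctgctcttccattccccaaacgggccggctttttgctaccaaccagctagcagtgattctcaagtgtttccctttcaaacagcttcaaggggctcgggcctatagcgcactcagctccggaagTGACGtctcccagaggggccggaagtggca
Hdac5: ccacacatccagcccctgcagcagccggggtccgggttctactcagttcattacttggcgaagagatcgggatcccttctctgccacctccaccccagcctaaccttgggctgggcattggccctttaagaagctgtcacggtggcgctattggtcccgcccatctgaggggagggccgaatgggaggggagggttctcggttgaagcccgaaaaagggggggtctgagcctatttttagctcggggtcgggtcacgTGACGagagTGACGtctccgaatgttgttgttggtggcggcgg
Hdac11: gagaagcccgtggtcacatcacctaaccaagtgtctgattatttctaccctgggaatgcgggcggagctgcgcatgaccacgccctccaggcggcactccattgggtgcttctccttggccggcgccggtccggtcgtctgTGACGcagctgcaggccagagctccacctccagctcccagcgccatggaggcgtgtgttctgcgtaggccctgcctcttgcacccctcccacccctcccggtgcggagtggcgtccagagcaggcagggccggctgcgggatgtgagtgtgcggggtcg
Kat7: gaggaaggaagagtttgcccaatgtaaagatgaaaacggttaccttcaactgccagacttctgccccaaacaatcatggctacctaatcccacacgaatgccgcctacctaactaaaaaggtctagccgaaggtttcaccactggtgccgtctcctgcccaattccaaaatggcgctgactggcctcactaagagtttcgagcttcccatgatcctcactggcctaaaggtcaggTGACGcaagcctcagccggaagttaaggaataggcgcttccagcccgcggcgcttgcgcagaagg
Kdm4a: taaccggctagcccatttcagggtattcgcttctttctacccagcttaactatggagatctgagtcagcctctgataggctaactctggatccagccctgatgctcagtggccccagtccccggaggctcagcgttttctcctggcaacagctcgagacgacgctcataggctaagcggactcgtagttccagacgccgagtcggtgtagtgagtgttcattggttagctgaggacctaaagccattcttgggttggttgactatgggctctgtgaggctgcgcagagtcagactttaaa
These windows are chr7:4739877-4740176 (plus strand) for Kmt5c, chr9:14500433-14500732 (minus) for Kdm4d, chr1:92180292-92180591 (minus) for Hdac4, chr19:5610045-5610344 (minus) for Kat5, chr11:102230123-102230422 (minus) for Hdac5, chr6:91156565-91156864 (plus) for Hdac11, chr11:95310197-95310496 (minus) for Kat7 and chr4:118179994-118180293 (minus) for Kdm4a.

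In Kdm4d both cores, at -23 and 20 from the start (0 is the start base), lay inside the CREB peak of every stage. In Hdac4 the cores at -103 and -51 did so, and the core at 14 lay in the wider E16.5 peak alone. The core of Kmt5c at -39 and the Kat5 core at 20 were covered by the E16.5 peak alone, and the Kat5 core at -189 by no CREB peak. In Hdac5 the core at 7 lay in the peaks of E16.5 and E18.5 and that at 16 in the E16.5 peak, and in Hdac11 the core at -109 lay in both. The Kat7 core at -15 lay in no CREB peak.

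The full palindrome TGACGTCA was in no promoter window of the 50 members with an annotated start. Over all 17491 protein-coding genes with such a window it was in 2.54%, and in 10.5% of the 3120 with CREB within 1000 bp of an annotated start. The core, which the palindrome also contains, was in 17 of 50 members (34%) beside 26.2% of all genes. Among members with CREB at an annotated start it was in 10 of 20 (50%), beside 59.4% of all such genes, and among members without in 7 of 30 (23.3%), beside 19%. Of the 5 members with CREB at an annotated start at every stage, 4 had a core, beside 75% of all such genes. These were Kmt5c, Kdm4d, Hdac4 and Kat5. Setd3 had none in its windows, but its E13.5 and E18.5 peaks lay outside these windows, where no letters were searched. A match describes the letters of a window and is not a measured binding site.

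Among the methylases, 4 of the 6 genes for H3K4-methylating enzymes of the COMPASS type carried CREB, each at 1 stage. Over all protein-coding genes 16.7% carried it at 1 or more stages and 5.48% at exactly 1. The subgroup is small. At E16.5 and at E18.5 alike, 2 of its 6 genes had CREB (interval 4.33 to 77.7). This interval held the 14.9% and 12.9% of all protein-coding genes, and it is not that of 4 of 6. Kmt2c and Kmt2d had CREB at E16.5 alone, in positions 2345 and 2015 of 3528. Kmt2b and Setd1a had it at E18.5 alone, in positions 1519 and 2561 of 2957. Kmt2a and Setd1b had none. The Kmt2d peak lay at the 3' end of the gene, 116 bp outside it and 44 bp from an end of Prkag1, which encodes a subunit of AMP-activated kinase. The annotated Kmt2d start, 39652 bp away, had H3K4 peaks and no CREB. Ezh1, which encodes an H3K27 methylase of PRC2, was likewise counted through its 3' end, with an E16.5 midpoint 1278 bp outside the gene and 888 bp from an end of Cntnap1. Ezh2, its close relative, had 3 H3K4 peaks and no CREB, the nearest CREB midpoint of any stage being 193188 bp from its ends. Of the H4K20 enzymes Kmt5a and Kmt5b had H3K4 alone, as did Setd2, the H3K36 methylase gene, Setd6 and Setd7.

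Kmt2e and Setd5, which encode SET-domain proteins with little known histone methylase activity, had CREB at E16.5 and E18.5 without H3K4 at an end. With Kmt2c they were the 3 members (4.84%) of this kind, beside 0.845% of all protein-coding genes. All 3 belonged to the methylases. Kmt2e midpoints lay 274 and 272 bp inside the gene, in positions 1087 of 3528 and 1694 of 2957, and the nearest H3K4 midpoint was 2216 and 2218 bp from them. Setd5 midpoints lay 524 and 458 bp outside its 5' end, near an end of the noncoding gene Gt(ROSA)26Sor, and the nearest H3K4 midpoint was 1836 and 1770 bp away. The Kmt2c peak lay 536 bp from an H3K4 midpoint that stood 1222 bp from the gene end, just beyond the window. H3K4 thus stood near each of these genes, beyond the 1000 bp counted.

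CREB stood at both later stages at 16 of the 62 members (25.8%), beside 11.1% of all protein-coding genes. Among the demethylases these were Kdm5a and the H3K9 demethylase genes Kdm3a, Kdm4a, Kdm4b and Kdm4d, 4 of the 6 of that kind and all 4 of those with H3K4. Kdm3b and Kdm4c had no peak at an outer end. The subgroup was compared after its values were seen and is small, with an interval of 22.3 to 95.7 for its 66.7%. Kdm3a encodes an enzyme known in the mouse gonad for removing H3K9 methylation at the sex-determining gene Sry. Its CREB midpoints lay 72 and 76 bp outside the 5' end (chromosome 6, 71632990), in positions 1429 of 3528 and 1154 of 2957, and 335 and 338 bp from an H3K4 midpoint. Kdm4a midpoints lay 64 and 6 bp inside its 5' end (chromosome 4, 118180090), in positions 473 and 695, and its H3K4 peak was in position 35 of 21211, the earliest H3K4 position among members. Kdm4b midpoints lay 154 and 172 bp outside the low-coordinate end on chromosome 17, with H3K4 895 and 913 bp from them.

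Of the genes for enzymes that remove H3K4 methylation, Kdm5a had CREB at E16.5 and E18.5, 148 and 206 bp outside an end and 418 and 476 bp from one of Ccdc77, and Kdm1b at E16.5 alone, 56 bp outside its 5' end and 22 bp from an end of Tpmt. Kdm1a, Kdm5c and the Y-linked Kdm5d had H3K4 alone, and Kdm5b had neither. H3K4 methylases thus had CREB in 2 of 6 genes at each of the later stages, and H3K4 demethylases in 2 of 6 and then 1 of 6. Of all protein-coding genes, 14.9% and 12.9% had it at these stages. The intervals for 2 of 6 (4.33 to 77.7) and 1 of 6 (0.421 to 64.1) held these shares and overlapped. Kdm2b, which encodes a reader of unmethylated CpG islands, had a peak at its outer 5' end at E16.5 and at an inner start at both E16.5 and E18.5, 70 and 94 bp upstream of it. Kdm8, a jumonji-domain gene, had CREB at E16.5 alone, in position 2907 of 3528.

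Several demethylase genes lay just beyond the count. Kdm6b, which encodes an H3K27 demethylase, had CREB midpoints inside the gene 1344, 1346 and 1330 bp from its nearest end in stage order. Kdm2a had them 1830 and 1548 bp from an end at E16.5 and E18.5, and Kdm6a at E16.5 alone, 1598 bp from the outer end and 114 bp upstream of an annotated start. Just inside the window stood the Ezh1 peak, with its midpoint at 1278 bp, which was counted through its 630 bp width. Kat6b, with midpoints 1578 and 1564 bp from its outer end at E16.5 and E18.5, was counted at an annotated start, 1008 and 996 bp away, and not at an end.

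All 8 acetylase genes had H3K4 at an end, whereas CREB stood at an outer end of Kat7 at E16.5 and E18.5 and of Kat8 at E16.5. Kat7 encodes HBO1, an acetylase tied to replication origins, and its CREB midpoints lay 352 and 94 bp inside the 5' end, in positions 498 of 3528 and 1579 of 2957. Kat8 encodes the H4K16 acetylase MOF; its peak lay 116 bp outside the 5' end in position 2505 of 3528. Kat5 and Kat6b were added by their annotated starts, which brought the class to 4 of 8 at E16.5 and to 3 of 8 by E18.5. The H3K4 peak at the outer end of Kat5 lay at its 3' end, 116 bp from an end of Rnaseh2c, but other H3K4 peaks stood at its annotated starts. The GCN5-type genes Kat2a and Kat2b, Kat6a and Kat14 had H3K4 and no CREB at an end.

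The deacetylase genes are given by their known classes, which are small, have overlapping intervals and were set side by side after their values were seen. The class I genes Hdac1, Hdac2, Hdac3 and Hdac8, which encode nuclear enzymes of the large corepressor complexes, all had H3K4 at an end and none had CREB there at any stage, where 0 of 4 allows a share of up to 60.2%. CREB stood at both class IIb genes, Hdac6 and Hdac10, and at the class IV gene Hdac11, whose products act largely on substrates other than histones. At E16.5 and E18.5 the interval was 15.8 to 100 for class IIb and 2.5 to 100 for class IV. Of all protein-coding genes, 14.9% and 12.9% had CREB at these stages. Hdac6 encodes the tubulin deacetylase; its midpoints lay 32 and 20 bp upstream of the annotated start at E16.5 and E18.5, in positions 3177 of 3528 and 2349 of 2957. Hdac11 midpoints lay 122 and 56 bp upstream of its start, in positions 3143 and 2824, near the end of both lists. Of the class IIa genes, Hdac5 had CREB 202 and 68 bp upstream of its start, in positions 1732 and 2254, and Hdac4 had it at an inner start, whereas Hdac7 and Hdac9 had H3K4 at inner starts and no CREB at an end or an annotated start.

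Among the 7 sirtuin genes, which encode NAD-dependent deacylases, Sirt2 and Sirt4 had CREB at E16.5 and E18.5. This was 28.6% at each stage (interval 3.67 to 71), beside 14.9% and 12.9% of all protein-coding genes. Sirt2 midpoints lay 460 and 126 bp outside the 5' end and 352 and 18 bp from an end of Nfkbib, and the E18.5 peak lay on an H3K4 peak, with midpoints 16 bp apart. Sirt4 encodes a mitochondrial sirtuin and had an E16.5 peak in position 330 of 3528 and 2 E18.5 peaks in positions 1186 and 1472 of 2957, 352 bp inside and 104 bp outside its outer 5' end, beside the noncoding genes Gm24265 and Gm24407. The annotated Sirt4 start lay 5614 bp from the nearer of these peaks and had an H3K4 peak at 24 bp. Sirt1, Sirt3 and Sirt5 had H3K4 alone, and Sirt6 and Sirt7 had no peak midpoint of any list nearer than 24652 and 48180 bp to an end. The 14 members with no peak of either kind at an outer end were Hdac4, Hdac7, Hdac9, Kdm2a, Kdm3b, Kdm4c, Kdm5b, Kdm6a, Kdm6b, Kdm7a, Setd1b, Setd4, Sirt6 and Sirt7.

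CREB peaks stood close to the annotated starts and H3K4 peaks around them. Of CREB peaks within 1000 bp of a start of the 50 members, 4 of 5, 14 of 20 and 12 of 15 in stage order had their midpoint within 250 bp, and 4, 14 and 12 lay upstream. The median distances were 112, 145 and 94 bp. Of the 74 H3K4 peaks 30 were within 250 bp, 28 lay upstream and the median distance was 418 bp. At E18.5, the stage with both antibodies, 17 of the 19 CREB peaks at outer ends of members had an H3K4 midpoint within 1000 bp and 3 overlapped an H3K4 peak, namely those at Hdac11, Kdm4d and Sirt2. Overlap depends on the fixed peak widths. Of the 24 wider E16.5 peaks (630 bp), 16 overlapped one, at a median midpoint distance of 334 bp beside 338 bp at E18.5. No such distances over all protein-coding genes are given here, so these values are not shown to be particular to the members.

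**Figure D3:**
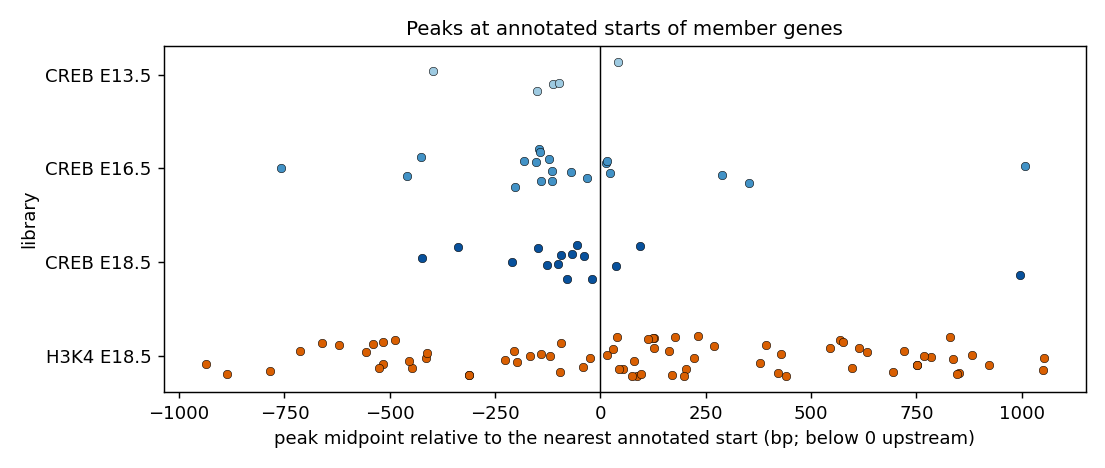
Midpoints of peaks within 1000 bp of an annotated start of the 50 members with one, in bp from the nearest such start, by library; each point is 1 peak, vertical spread is for display, and values below 0 are upstream. CREB points crowd within 250 bp of the start (12 of 15 at E18.5), and H3K4 points spread to both sides with a median distance of 418 bp.

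No source used here says what the order of peaks in a file means, and it is given only as it stands. Members with CREB at an outer end had a median first position at 35.5%, 49.1% and 49.7% of the list in stage order, beside 50.3%, 43.6% and 44.8% for all protein-coding genes with CREB. For H3K4 the median was 22.9% over the 45 members with a peak at an end, beside 33.7% over all protein-coding genes with one. The 4 genes with CREB at every stage all stood in the first 13.9% of the E16.5 list. Of the others there, Sirt4, Kdm4a and Kat7 were about as early, at 9.35%, 13.4% and 14.1%. Setd3 and Kmt5c were also early at E18.5, at 8.73% and 9.64%. Members with CREB at an outer end at E16.5 alone stood at 57.1% or later, Kmt2d being the first of them. Kdm2b is among them, though it had an E18.5 peak at an inner start, in position 2222 of 2957. Positions of all protein-coding genes with the same stage patterns are not given here, so these positions are not shown to be particular to the members.

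**Figure D4:**
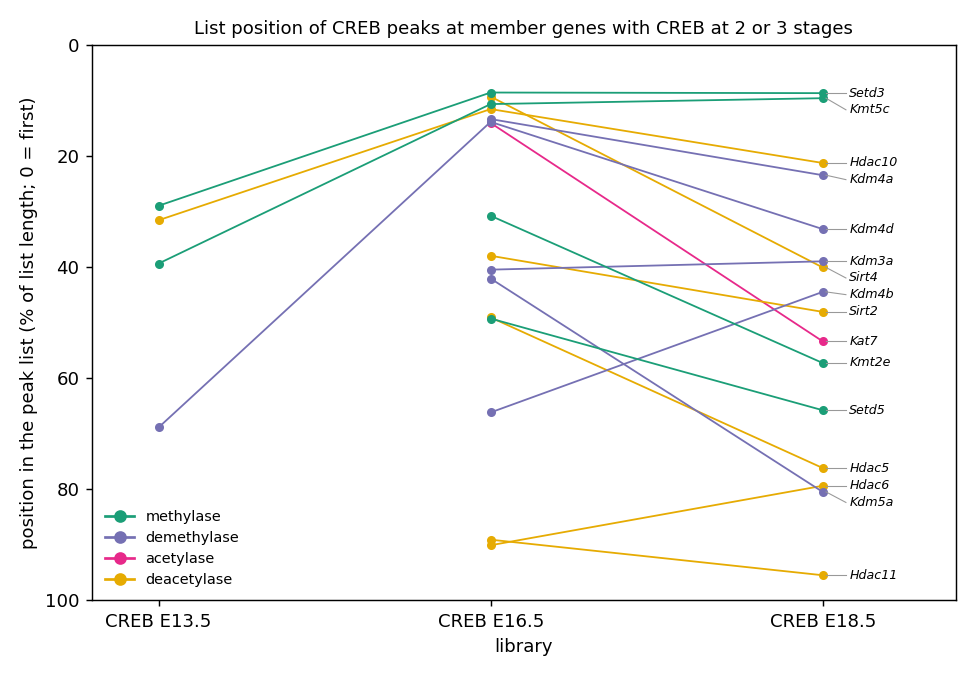
Position of the first CREB peak at each member with CREB at an outer end at 2 or 3 stages, as % of the list's length from the top (0 is first), by stage; lines join the stages of a gene and colours give the class. Setd3 and Kmt5c stand within the first 10.7% at both later stages, and Hdac11 stands at 89.1% and 95.5%.

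CREB peaks also lay inside member genes, away from both outer ends, at 3 members at E13.5 (4.84%, beside 0.475% of all protein-coding genes), 9 at E16.5 (14.5%, beside 2.52%) and 6 at E18.5 (9.68%, beside 1.95%). H3K4 peaks lay there in 25 members (40.3%, beside 17.4%). The members are longer genes, with a median length of 42158 bp beside 17170 bp, and the part of length in these shares was not tested. At E13.5 the genes were Hdac4, Kat5 and Kdm6b, and each of them had such a peak at both later stages as well. The CREB body peaks of Hdac4 and Kat5 are those described above at inner annotated starts. So are those of Kat6b and Kdm2b at E16.5 and E18.5, and that of Kdm6a at E16.5. Kdm6b held 1, 2 and 3 CREB peaks in stage order and 3 H3K4 peaks in its body. Kat2b, Hdac9 and Kdm6a had a body peak of CREB at E16.5 alone.

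The complexes that carry these enzymes were counted by lists, beside the same background of 3.94%, 14.9% and 12.9% in stage order. Of 27 deacetylase complex subunits 2, 11 and 11 had CREB (7.41%, 40.7% and 40.7%), with Arid4b and Brms1, subunits of Sin3 complexes, at every stage. Of 34 acetylase complex subunits the counts were 3, 11 and 9 (8.82%, 32.4% and 26.5%), with Ing3, Ing4 and Morf4l1 throughout. Of 12 COMPASS subunits they were 0, 3 and 2 (0%, 25% and 16.7%), and of 10 PRC2 subunits 0, 4 and 2 (0%, 40% and 20%). The interval of the deacetylase complex list lay above the background at E16.5 and at E18.5 (22.4 to 61.2 at both). That of the acetylase complex list lay above it at E16.5 (17.4 to 50.5) and began at it at E18.5 (12.9 to 44.4). At E13.5 the intervals of both held the background, as did those of the COMPASS and PRC2 lists at every stage. Of 26 further histone enzyme genes 0, 6 and 3 had CREB (0%, 23.1% and 11.5%), with intervals that held the background. Crebbp, which encodes the acetylase that CREB recruits, was among those with a peak at E16.5.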

How the data were processed

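The deposited files are peak lists of 3 columns (chromosome, start, end) in mm10 coordinates, 1 list for each of 4 libraries of the 5 in the series, with no score or count. Per the submitters' processing notes, Trim Galore 0.6.10 and Bowtie2 2.5.2 were used, with MACS2; its version, settings and control are not given in sources used here. Gene coordinates were those of RefSeq on GRCm38.p6 (equal to mm10), with 21883 protein-coding genes on the assembled chromosomes. Starts, strand and promoter letters came from the RefSeq promoter table, which has 17491 of these genes; where it has no entry, a gene end is named by coordinate. An overlap of at least 1 bp with a window of 1000 bp before and after a gene end counted. Coordinates are 1-based, and a distance is that of a peak's midpoint. Members, classes and companion lists were chosen with earlier results of these data known. Named are all members with CREB and all without H3K4 at an end; positions go to members with CREB at all 3 stages and to at most 4 members against the general pattern; the list positions, distances and promoters of further members were added after their values were seen. Counting at inner starts and leaving out shared peaks were chosen after seeing the data. Shares carry exact 95% Clopper-Pearson intervals from scipy 1.17.1, under Python 3.11.15, with pandas 2.3.3, numpy 2.4.6 and matplotlib 3.10.9. On simulated peaks planted at 200 of 21883 gene ends, the overlap code recovered 200 for each library. Depth is unknown, so a gene without a peak may still be bound.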

Additional observations from a re-analysis of the deposited data

How the results depend on the processing

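Of 189 recounts of the 21 counts under 9 settings, 153 stayed within 1.5 times the reported count, the E16.5 and E18.5 totals in all but 1 setting. That setting kept as many first peaks of each list as E13.5 holds (862): at E16.5 then 7 members had CREB, at E18.5 4 did, and 4 had H3K4, beside 4.36%, 4.29% and 4.17% of all protein-coding genes; the class counts, in the order methylases, demethylases, acetylases, deacetylases, were 2, 2, 1 and 2 for the E16.5 list, 2, 1, 0 and 1 for that of E18.5, and 0, 2, 0 and 2 in the H3K4 list. A window of 2500 bp gave 2 demethylases and 1 acetylase at E13.5, and 4 and 3 acetylases at the later stages. This window also raised the share of all protein-coding genes with CREB at each stage, to 4.46% at E13.5 and 14.3% at E18.5. The 5' end alone was counted for the 50 members with a known strand. It gave 0 of 15 deacetylases at E13.5, 4 of 15 methylases at E16.5 and 3 of 13 demethylases at E18.5. The shares of protein-coding genes by this count were 4.01%, 15% and 13% in stage order. Without Setd3, Sirt3, Sirt4 and Sirt5, 1 methylase had CREB at E13.5. Any annotated start, for the same 50, gave 1 of 7 acetylases at E13.5. It gave 3 of 15 methylases and 4 of 7 acetylases at E16.5, and 3 of 15 and 3 of 7 at E18.5. By annotated start the shares of protein-coding genes were 4.28%, 16% and 13.9% in stage order. Without peaks near another protein-coding gene's end, 1 member had CREB at E13.5 and 1 at all 3 stages (Kmt5c). This left 1 methylase, 0 demethylases and 0 deacetylases at E13.5, 4 methylases and 5 demethylases at E16.5, and 3 demethylases at E18.5. The shares of all protein-coding genes also fell, to 2.21%, 9.25% and 7.99% in stage order. A window of 500 bp, a common width of 150 bp and 50% overlap moved no count beyond 1.5 times. No paired analysis was possible because each group holds 1 library. The lists hold no score, so a stricter threshold could not be set.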
